A study of Rattus norvegicus with 6 samples.

Results

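The regenerating (Reg) genes of the rat encode small secreted proteins of the C-type lectin fold. The family was named from pancreas that was rebuilding its islets. Reg1a encodes a protein that acinar cells pour into pancreatic juice, while Reg3a, Reg3b and Reg3g encode the pancreatitis-associated proteins, which the acinar cell makes in large amount when the pancreas is inflamed. Reg3g is also known as a lectin that kills bacteria at the gut lining. Signals of the interleukin-6 and interleukin-22 family, passed on by JAK kinases and STAT3, are known to induce Reg3 genes.

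The family was represented by 4 genes, Reg1a, Reg3a, Reg3b and Reg3g, out of 13903 genes with a named probe. Their 5 probes, of 24684 on the array, were found through the RefSeq accession of each probe, and Reg3a had a probe for each of 2 RefSeq transcripts. RNA came from islets freed with collagenase from the pancreas of male wistar rats aged 12 months or 3 months, with 3 rats and 3 one-colour arrays of each age and no treatment or transgene in the labels. Values are log2 of background-subtracted intensity after quantile normalization, and a difference is the 12-month mean minus the 3-month mean. All 5 probes were well above background on all 6 arrays, none was saturated, and each was printed on 1 spot.

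The arrays of the 2 ages differed as a whole. The share of all probes well above background was 59.5 to 64.2% at 12 months and 73.1 to 77.5% at 3 months. Before normalization the 75th percentile of log2 intensity was 8.46 on 3-month array 1 and 10.2 to 11.3 on the other arrays. The 12-month arrays shared 1 scan and the 3-month arrays another, and the effects of scan and of age cannot be told apart. The median difference of all 17941 tested probes was -0.17 on the log2 scale. In RNA of whole islet preparations, fewer cells of a type and less RNA per cell cannot be told apart.

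The 4 genes lie beside each other on chromosome 4 in the order Reg3b, Reg3a, Reg1a, Reg3g, with the pseudogene Reg3b-ps1 between Reg3b and Reg3a and a long non-coding RNA gene annotated around Reg3g. Whether the probes also bind RNA of the pseudogene or of another Reg gene was not tested, since their sequences were not at hand. The 250 bases before the start of each gene are shown because Reg3a and Reg3b moved together across all 6 arrays, while Reg3g had their order of arrays at 12 months and not at 3 months. They are from RefSeq, assembly GRCr8, and read 5′ to 3′ on the strand of the gene. Capitals mark the TATA box TATAAA, the E-box CACCTG (the kind of site that the acinar factor PTF1A binds) and the STAT palindrome TTCNNNGAA, each searched on both strands. The stretches are chr4:112419526-112419775 (plus strand) for Reg3b, chr4:112430147-112430396 (plus strand) for the first of the annotated starts of Reg3a, chr4:112450216-112450465 (plus strand) for Reg1a and chr4:112484739-112484988 (minus strand) for Reg3g.
Reg3b: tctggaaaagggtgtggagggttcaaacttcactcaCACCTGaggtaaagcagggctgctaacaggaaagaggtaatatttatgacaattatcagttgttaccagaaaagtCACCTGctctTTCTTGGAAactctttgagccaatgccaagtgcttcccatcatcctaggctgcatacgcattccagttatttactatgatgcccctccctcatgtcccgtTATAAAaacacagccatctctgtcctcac
Reg3a: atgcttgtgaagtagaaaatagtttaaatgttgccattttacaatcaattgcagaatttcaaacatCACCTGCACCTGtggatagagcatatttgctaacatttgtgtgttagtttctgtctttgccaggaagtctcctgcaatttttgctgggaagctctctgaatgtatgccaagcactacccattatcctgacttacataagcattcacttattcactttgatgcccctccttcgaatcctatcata
Reg1a: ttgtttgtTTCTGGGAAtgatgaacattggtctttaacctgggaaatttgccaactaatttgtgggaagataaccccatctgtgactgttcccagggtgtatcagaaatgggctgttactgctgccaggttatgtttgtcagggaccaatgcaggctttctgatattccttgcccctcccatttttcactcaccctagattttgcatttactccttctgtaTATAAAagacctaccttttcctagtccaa
Reg3g: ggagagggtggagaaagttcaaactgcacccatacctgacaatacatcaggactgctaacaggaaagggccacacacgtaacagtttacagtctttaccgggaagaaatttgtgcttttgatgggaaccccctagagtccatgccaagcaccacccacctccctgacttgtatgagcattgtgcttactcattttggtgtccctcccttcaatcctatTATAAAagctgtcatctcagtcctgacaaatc

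The TATA letters began 29 bases before the start in Reg3b and in Reg1a and 32 bases before it in Reg3g, and were not in the Reg3a window. Of 27457 rat promoters of this length, 13.1% held them. The E-box letters occurred at 214 and 139 bases before the start in Reg3b and at 184 and 178 bases before it in Reg3a, beside 15.6% of all promoters. The STAT palindrome was in Reg3b, 129 bases before the start, and in Reg1a, 242 bases before it, beside 7.52% of all promoters. In global alignment, the Reg3b and Reg3g stretches were identical at 63.8% of columns, Reg3b and Reg3a at 55%, and the other pairs at 49.8 to 54%. Gaps count as columns in these shares, so their order depends on the gaps and does not rank the stretches by likeness. The window of a later annotated start of Reg3a was not aligned.

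Reg3g was the member that differed between the ages. Its log2 signal was 12.47, 8.84 and 10.07 on 12-month arrays 1, 2 and 3, and 6.77, 5.62 and 6.10 on 3-month arrays 1, 2 and 3. Each 12-month array lay above each 3-month array, and 12-month array 1 stood well above the other two of its age. As background-subtracted intensity before normalization, this was 10167, 739 and 1017 at 12 months against 44.4, 43.9 and 74.4 at 3 months.

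Reg3g had a mean log2 signal of 10.46 ± 1.84 in the older and 6.16 ± 0.58 in the younger rats (SD, n = 3 each). The difference was 4.30 (SE 0.88, 95% interval 2.21 to 6.39), or 19.7-fold with an interval of 4.63 to 84.0, with an adjusted p of 0.0355 by limma with Benjamini-Hochberg adjustment over all tested probes. Relative to the median of all probes the difference was 4.47. The exact permutation test gave a two-sided p of 0.1, the smallest that 3 arrays against 3 allow. Leaving out 12-month array 1 lowered the difference to 3.30 (adjusted p = 0.0544 by limma). The adjusted p was also above 0.05 without 12-month array 3 (difference 4.50, limma adjusted p = 0.0882), 3-month array 1 (4.61, 0.0926), 3-month array 2 (4.03, 0.0787) or 3-month array 3 (4.27, 0.103). Without 12-month array 2 the call held, at 5.11 (0.0205). With a replicate block of 3 pairs the limma adjusted p was 0.0663, and with arrays 1 and 2 as the block it was 0.221.

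Of the 4 genes, 1 passed the adjusted p threshold of 0.05, and it was higher at 12 months. Over all tested probes, 8.34% passed in either direction, 5.31% higher and 3.03% lower at 12 months. Reg3g was also the member whose ages did not overlap, beside 16.5% of all tested probes with every 12-month array above every 3-month array. At the cut-offs of the study, more than a 2-fold change and a nominal p below 0.05, here with the p of limma in place of the paired test that the study names, Reg3g was again the member past it, beside 10.1% of all probes past it on the higher side.

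**Figure D1:**
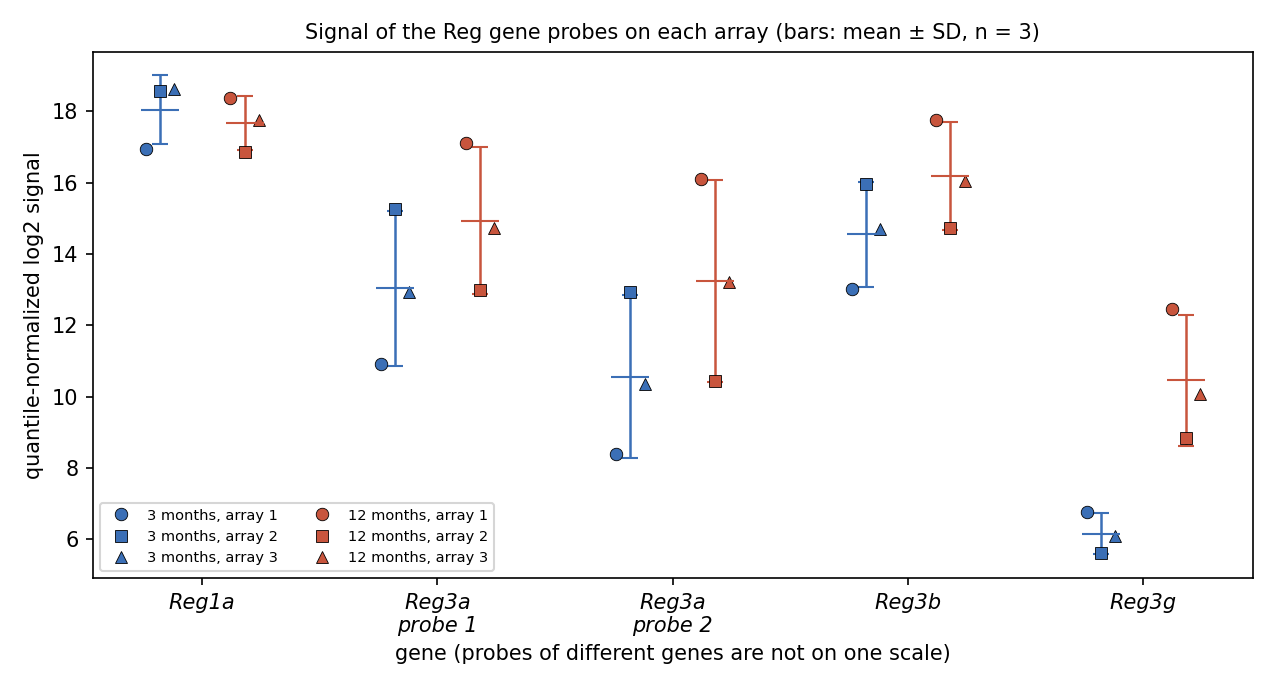
Quantile-normalized log2 signal (vertical axis) of the 5 Reg probes (horizontal axis) on each array, with 3-month arrays in blue, 12-month arrays in red, a marker shape for each array number, and bars for the mean ± SD of 3 arrays. The Reg3g values of the ages do not overlap (5.62 to 6.77 against 8.84 to 12.47), while those of Reg1a, Reg3a and Reg3b do.

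Reg3b and Reg3a had higher means at 12 months, by differences within their spread between arrays. Reg3b was at 17.76, 14.74 and 16.04 on 12-month arrays 1 to 3, and at 13.01, 15.96 and 14.70 on 3-month arrays 1 to 3. The highest value was on 12-month array 1 and the lowest on 3-month array 1, and the other 4 arrays, with both ages among them, lay between 14.70 and 16.04. The means were 16.18 ± 1.51 and 14.56 ± 1.48 (SD, n = 3 each). The difference of 1.63 (SE 0.96, 95% interval -0.65 to 3.90), or 3.08-fold, had an adjusted p of 0.274 in the limma fit and an exact permutation p of 0.2. Of the 9 pairings of a 12-month with a 3-month array, the 12-month array was higher in 8.

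Reg3a was at 17.11, 12.98 and 14.72 on 12-month arrays 1 to 3, and at 10.92, 15.27 and 12.92 on 3-month arrays 1 to 3 by its brighter probe. The order of the extremes was that of Reg3b, with 12-month array 1 highest and 3-month array 1 lowest, and the ages overlapped. The difference was 1.90 (SE 1.35, 95% interval -1.30 to 5.10), or 3.74-fold with an interval of 0.407 to 34.3, and its limma adjusted p was 0.352 (exact permutation p = 0.4).

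The second Reg3a probe, made for the other transcript, was at 16.10, 10.44 and 13.21 at 12 months and at 8.40, 12.95 and 10.35 at 3 months. It ordered the extremes in the same way, and its difference of 2.68 (SE 1.62, 95% interval -1.17 to 6.54) had a limma adjusted p of 0.284.

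Without 3-month array 1 the difference of Reg3a fell to 0.84 and that of Reg3b to 0.85 on the log2 scale, and without 12-month array 1 they were 0.82 and 0.84. Both intervals held 0, and that of Reg3a reached past the Reg3g difference of 4.30.

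Reg1a had a mean that was lower at 12 months by less than its spread. It was at 18.37, 16.88 and 17.76 on 12-month arrays 1 to 3, and at 16.94, 18.57 and 18.63 on 3-month arrays 1 to 3. The lowest values were on 12-month array 2 and 3-month array 1, so that each age held a low array. The means were 17.67 ± 0.75 and 18.05 ± 0.96 (SD, n = 3 each), and the difference was -0.38 (SE 0.58, 95% interval -1.75 to 1.00) with a limma adjusted p of 0.668 (exact permutation p = 0.5). The difference was 0.019 without 12-month array 2 and -0.93 without 3-month array 1. It was -0.69 under 75th percentile scaling (SE 0.48, limma adjusted p = 0.313) and 0.15 with array weights.

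**Figure D2:**
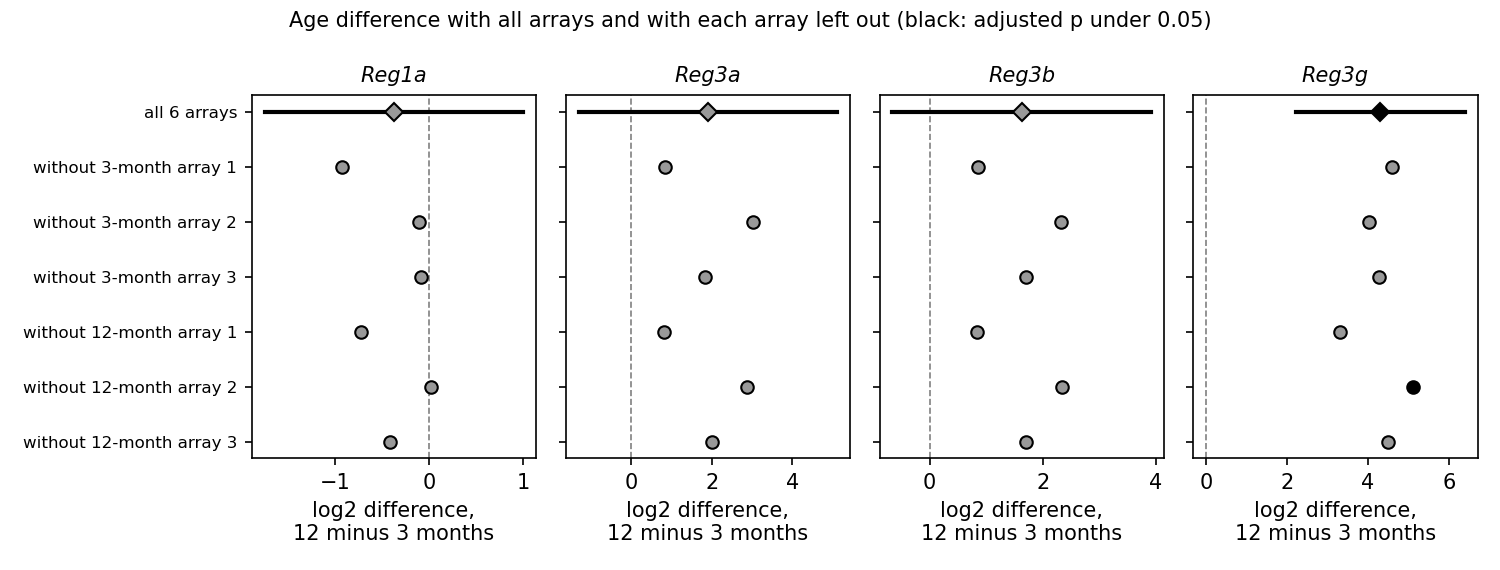
Difference in mean log2 signal, 12 minus 3 months (horizontal axis, one panel for each Reg gene), from all 6 arrays with its 95% limma interval (diamond and line) and with each array left out (circles); black symbols have an adjusted p under 0.05. Reg3g stays between 3.30 and 5.11 with an array left out, whereas Reg3a and Reg3b fall to 0.82 and 0.84 without 12-month array 1 and Reg1a comes to 0.019 without 12-month array 2.

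The ratio of one member to another on the same array was compared between the ages, since a shift common to the family does not enter it. No ratio passed the exact test after adjustment. The log2 ratio of Reg3g to Reg1a was higher at 12 months by 4.68, and that of Reg3g to Reg3b by 2.68, with all 9 pairings in this direction for each. The log2 ratio of Reg3b to Reg1a was higher by 2.00, again in all 9 pairings. For each of these 3 ratios the exact permutation test gave a two-sided p of 0.1, the smallest possible, and 0.2 after Benjamini-Hochberg adjustment over the 6 pairs of members. The ratio of Reg3b to Reg3a differed by -0.28 (exact permutation p = 0.5), and those of Reg3g to Reg3a (2.40) and Reg3a to Reg1a (2.28) had an exact permutation p of 0.3 and 0.2.

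The spread of Reg genes between arrays of one age was wide beside that of most tested probes. Some acinar genes spread as widely as Reg3b and Reg3g. The pooled SD within an age was 0.86 for Reg1a, 2.12 for Reg3a, 1.50 for Reg3b and 1.37 for Reg3g on the log2 scale, and its median over all tested probes was 0.43. Among tested probes within 1 log2 unit of the mean signal of the same gene, 97.8% had a smaller SD than Reg1a (92 probes), 99.9% than Reg3a (1261 probes), 99.2% than Reg3b (468 probes) and 97.5% than Reg3g (3354 probes). For Reg3g most of this spread came from the 12-month arrays, whose range was 3.62 against 1.15 at 3 months. The range of Reg3a was 4.12 at 12 months and 4.35 at 3 months. The probes near Reg1a had a median SD of 0.19, and quantile normalization gives the brightest probes like values. Among acinar genes, the SD at 12 and at 3 months was 1.96 and 1.64 for Ctrb1 and 1.91 and 1.39 for Cel. It was 1.40 and 1.61 for Clps, while other acinar genes spread little, such as Cpb1 (0.03 and 0.06).

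The signals of Reg3a and Reg3b varied together from array to array. Binding of the probe of one gene to RNA of the other was not tested. Over the 6 arrays their Pearson r was 0.993 (exact permutation p = 0.00972, adjusted 0.0583 over 6 pairs of members) and their Spearman rho 0.943 (exact permutation p = 0.0167, adjusted 0.10). Without the 2 arrays farthest from the median of Reg3a, 12-month array 1 and 3-month array 1, r was 0.973. After the mean of each age was removed, r was 0.995. For Reg1a, r over all 6 arrays was 0.628 with Reg3a and 0.600 with Reg3b (exact permutation p = 0.194 and 0.222), and -0.15 and -0.23 without 12-month array 2 and 3-month array 1. After the mean of each age was removed, r was 0.888 with Reg3a and 0.924 with Reg3b over the 6 arrays. For Reg3g, r was -0.073 with Reg1a, 0.604 with Reg3a and 0.672 with Reg3b over the 6 arrays. Their exact permutation p was 0.911, 0.225 and 0.146. Since the values of Reg3g fell into separate groups by age, these r mix the difference between the ages with the relation within an age. The relation of Reg3g to the other members within an age was not tested, since 3 arrays are too few. At 12 months all 3 Reg3 genes had the same order of arrays, and the SD of the log2 ratio over those arrays was 0.29 for Reg3g to Reg3a and 0.37 for Reg3g to Reg3b. At 3 months these SDs were 2.75 and 2.06, and the highest array for Reg3g was the one where Reg3a and Reg3b were lowest.

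**Figure D3:**
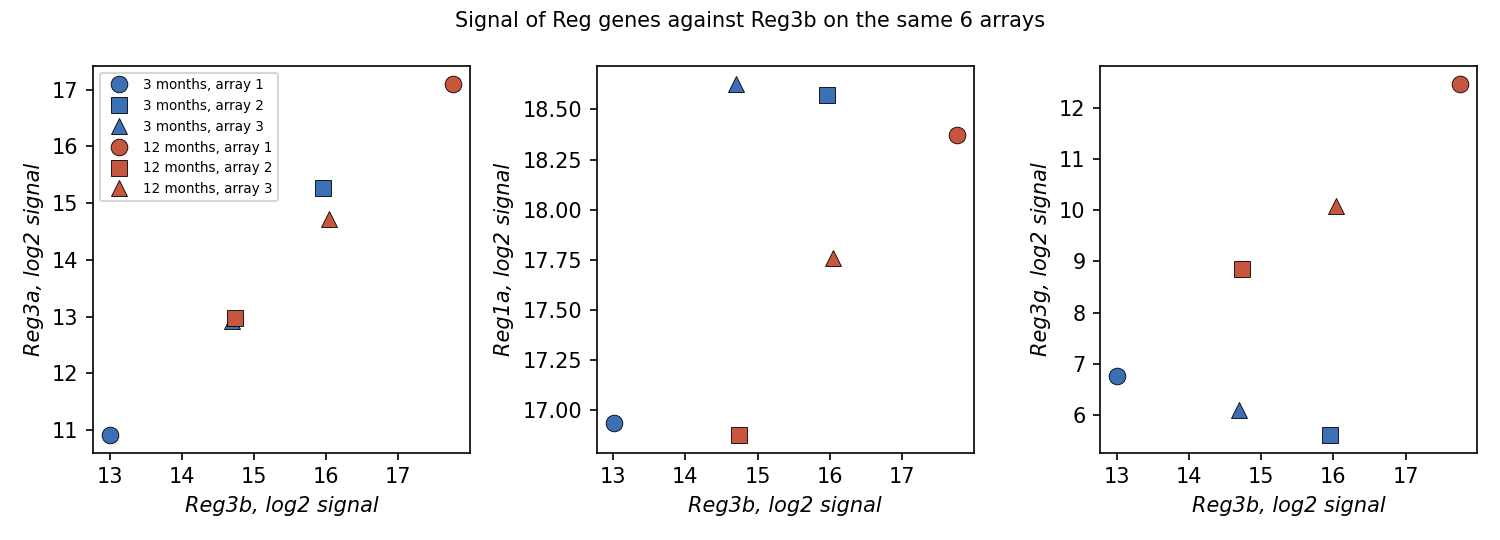
Log2 signal of Reg3a, Reg1a and Reg3g (vertical axes) against that of Reg3b (horizontal axes), each point 1 array, blue for 3 months and red for 12 months. Reg3a lies near a line over both ages (r = 0.993), and in Reg3g the 3-month arrays, at 5.62 to 6.77, lie below the 12-month arrays at like values of Reg3b.

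The genes whose pattern over the 6 arrays was most like that of each member are given as a description. Candidates were tested genes with an SD of at least 0.5 times that of the member. For Reg3b, of 2871 candidates, Reg3a was first (r = 0.993), followed by Cd37 (0.976), Ccl21 (0.954), Col5a1 (0.943) and Klf6 (0.929). For Reg3a, of 1397 candidates, Reg3b was first, followed by Cd37 (0.963), Arl13a (0.925), Fgl1 (0.919) and Cblif (0.918). Cd37 encodes a tetraspanin of B cells, Ccl21 a chemokine of lymphoid tissue and Col5a1 a fibrillar collagen chain.

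For Reg3g, of 746 candidates, the first were Mk1 (0.951), Ackr3 (0.947), Igsf9 (0.936), Hmgb2 (0.935) and Olr1 (0.933). Since the ages of Reg3g do not overlap, these r values largely restate the difference between the ages, and a higher 12-month mean in the likest genes follows from how they were chosen. For Reg1a, of 7518 candidates, they were Or13p4 (0.976), Mybl2 (0.966), Pnma8a (0.963), Or52m1 (0.958) and Cidec (0.949), of which Cidec alone was well above background on all 6 arrays.

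Acinar cells are the main known source of Reg proteins in the pancreas, and their products were measured on every array. Of 26 listed acinar secretory genes 22 had a probe, all 22 were well above background on all 6 arrays, and 0 passed the limma threshold (1 had an unadjusted p under 0.05, and the methods' t-test called 0 after adjustment). Prss1, a trypsinogen, had no probe. The median difference was 0.02, beside -0.17 over all probes, and 11 of the 22 were higher at 12 months. Their summed level, the log2 of the summed normalized intensity, was 22.11 to 22.56 in 12-month islets and 22.24 to 22.55 in 3-month islets. A summed level follows the brightest genes of its list. Quantile normalization gives the brightest probes like values on every array, so this sum had little room to differ. Cela2a, for one, was at 18.57 on each of the 12-month arrays. Cpa1, a carboxypeptidase, differed by 0.10 (limma adjusted p = 0.921), Cela1, an elastase, by -0.19 (0.753), Amy2a3, an amylase, by 0.17 (0.640) and Ptf1a, the acinar transcription factor, by -1.06 (0.264). The signs of Cpa1 and Amy2a3 turned when arrays were scaled by their 75th percentile, and that of Cela1 with array weights.

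Cpa1 was at 18.12, 16.83 and 18.12 on 12-month arrays 1 to 3 and at 18.05, 18.25 and 16.47 on 3-month arrays 1 to 3. On 12-month array 2 the mean log2 signal of the acinar list was 17.12, against 17.28 to 17.98 on the other arrays. The acinar genes were not low as a whole there, since Cel was at its lowest (14.36) and Ctrc at its highest (18.63). All 4 Reg genes had their lowest 12-month value on 12-month array 2. On 3-month array 1, where Reg3a and Reg3b were lowest, Cpa1 was near its highest values, and on 3-month array 3, where Cpa1 was lowest, Reg1a was at its highest. The part of acinar RNA in the Reg values was not otherwise tested.

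Among markers of other cells, 1 stellate and 1 duct gene passed the limma threshold. Of 6 stellate cell genes with a probe 5 were higher at 12 months, with a median difference of 1.46, and 4 had an unadjusted limma p under 0.05. Pdgfrb, the PDGF receptor of mesenchymal cells, passed after adjustment (1.68, limma adjusted p = 0.0453). Their summed level was 15.22 to 16.58 at 12 months, highest on 12-month array 1 as were the Reg3 genes, and 14.68 to 15.11 at 3 months. The mean log2 signal of the duct and leukocyte lists was also highest on that array. That of the acinar, endothelial and both endocrine lists was not. Of 7 duct genes Car2, a carbonic anhydrase, rose (1.58, limma adjusted p = 0.0478), with summed levels of 15.28 to 16.01 at 12 months and 14.99 to 15.31 at 3 months, and 2 of the 7 had an unadjusted p under 0.05. By the methods' t-test the adjusted p was 0.114 for Pdgfrb and 0.115 for Car2, and that of Car2 in limma was 0.0896 under 75th percentile scaling and 0.0600 after normexp (difference 0.91). Of 11 leukocyte genes with a probe 9 were tested and 0 passed in limma or by the methods' t-test (0 at an unadjusted p under 0.05), their median difference was -0.18, and their summed level was 13.37 to 14.37 at 12 months and 13.67 to 15.05 at 3 months. Of 6 endothelial genes 0 passed in limma or by that test (4 at an unadjusted p under 0.05), and 1 was higher, with a median of -0.76.

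The hormone-producing cells were seen on every array, with all 7 beta cell genes and all 7 genes of other endocrine cells well above background throughout. Of the beta cell genes Slc2a2, the glucose transporter, rose by 4.11 (limma adjusted p = 0.00368) and Slc30a8, the granule zinc transporter, by 3.71 (0.00904). The summed level of the list was 20.01 to 20.19 at 12 months and 19.66 to 19.89 at 3 months. Hhex, the delta cell factor, rose by 1.68 (0.0236). Without 12-month array 1, 12-month array 3, 3-month array 1 or 3-month array 3, the limma adjusted p was above 0.05 for Pdgfrb (differences of 1.43 to 1.79), Car2 (1.30 to 1.72) and Hhex (1.49 to 1.85), and for Car2 also without 3-month array 2 (1.59). Slc2a2 and Slc30a8 stayed under it with any array left out. By the methods' t-test Slc30a8 and Hhex had an adjusted p of 0.0572 and 0.0686, and Slc2a2 passed. The part of these cells in the rise of Reg3g was not tested.

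**Figure D4:**
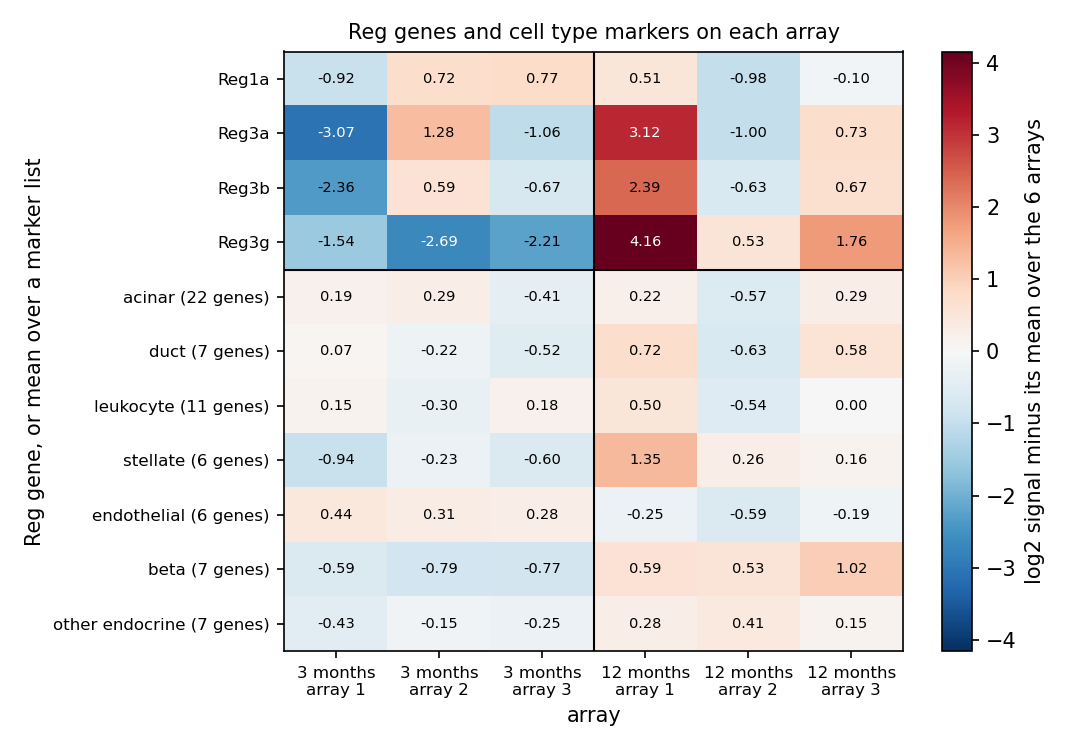
Log2 signal minus its mean over the 6 arrays (colour and printed value) for the Reg genes (above the line) and for the mean of each cell marker list (below it, number of genes with a probe in brackets), by array (columns). Reg3g, the stellate and both endocrine lists are above their mean on all 3 of the 12-month arrays and below it on the 3-month arrays, while the acinar list has a low array in each age.

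Among genes listed for interleukin-6 and interleukin-22 family signalling, Il6r, Il20ra and Jak2 rose and Socs3 fell in the limma fit without a block. Each of these calls was lost in other fits. Of the 31 listed genes 27 had a probe and 20 were tested. Of these 3 passed higher and 1 lower, beside 5.31% and 3.03% of all tested probes, and the median difference of the list was 0.05. By the methods' t-test, with either replicate block and from the 4 arrays whose names share an ending, 0 passed. Il6r, the interleukin-6 receptor, was at 11.22, 12.06 and 12.12 on 12-month arrays 1 to 3 and at 9.18, 8.20 and 7.33 on 3-month arrays 1 to 3, a difference of 3.57 (SE 0.51, limma adjusted p = 0.0145). Its arrays did not overlap between the ages, and 12-month array 1, the highest for Reg3g, was the lowest of its age for Il6r. Jak2, a kinase, rose by 1.66 (0.0193) and Il20ra, a receptor chain of the interleukin-20 family, by 1.61 (0.0420).

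Socs3, the inhibitor that STAT3 itself induces, was at 6.84, 6.87 and 6.66 at 12 months and at 8.43, 8.02 and 7.72 at 3 months, and fell by 1.27 on the log2 scale (SE 0.26, limma adjusted p = 0.0368). Each 12-month array lay below each 3-month array. Stat3, the transcription factor, differed by 0.65 (adjusted p = 0.210), and Il10rb, a listed receptor chain, by 0.01 (limma adjusted p = 0.980). Il6st, the shared receptor chain, was below the mark for well above background on all 6 arrays and was not tested, and Il22ra1, the interleukin-22 receptor, had no probe. Leaving out 12-month array 3 took Il6r to 3.41 (limma adjusted p = 0.0566). Jak2 lost its call without that array, 12-month array 1, 3-month array 1 or 3-month array 3 (1.57 to 1.63), Il20ra without any array but 3-month array 3 (1.33 to 1.73), and Socs3 without any array but 12-month array 2 (-1.44 to -1.08). By the methods' t-test (unpaired) the adjusted p was 0.0727 for Il6r, 0.0535 for Jak2, 0.105 for Il20ra and 0.0722 for Socs3. With a replicate block of 3 pairs the limma adjusted p was 0.0830, 0.101, 0.129 and 0.120 in the same order.

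The other regenerating gene and the proposed Reg receptor were dim. Reg4, which encodes a Reg protein of the gut, was at 4.30, 4.77 and 4.20 at 12 months, not well above background on any of these arrays, and at 4.82, 4.54 and 6.82 at 3 months. Its ages did not differ past the threshold (limma adjusted p = 0.295), and the 3-month mean was raised by 3-month array 3 alone, so no fold is given. Extl3, a glycosyltransferase proposed as the receptor, was at 4.80, 4.68 and 5.84 at 12 months, well above background on 1 of 3 arrays, and at 5.87, 5.74 and 5.26 at 3 months, well above it on 3. Its difference of -0.52 had a limma adjusted p of 0.366.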

How the data were processed

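RNA of islets of 3 rats aged 12 months and 3 aged 3 months was measured on 1-colour Cy3 arrays. Per the file headers, Agilent Feature Extraction 11.0.1.1 gave the deposited intensity of each spot; its background-subtracted intensity and quality marks were used, which had not been normalized between arrays. The log2 table the authors deposited covers 12145 probes, all 5 Reg probes among them, and followed the values computed here with a correlation of at least 0.9996 on each array. The study's methods state quantile normalization.

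Unflagged spots of a probe were averaged as log2 and quantile normalized. Probes well above background on at least 3 arrays were kept, and 17941 were tested with limma 3.58.1 in R 4.3.3 (lmFit and eBayes, two-sided, no block), with Benjamini-Hochberg adjustment. For Reg3a the probe with the higher mean over the 6 arrays stands for the gene. Probes were named through RefSeq accessions, without versions, in a RefSeq table (GRCr8), which also gave the promoters; the array was designed on another build, hence no gene coordinates. The fit was checked on simulated data. Stretches were aligned with Biopython 1.88. Arrays have no read depth, and their number limits the precision.

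The members, the gene lists and the tests were chosen with earlier results of these data known. Named genes are all members, list genes past the threshold, a few defining genes and the 5 genes most like each member. The 12-month array numbered 3 carries no number in the labels. Same-numbered arrays did not deviate together (correlations of -0.01, -0.31 and -0.26), so the numbers were not used as pairs, although the study names a paired t-test. Alternatives were other scalings, background correction, filters, array weights, replicate blocks, the methods' t-test (here unpaired) and leaving out each array.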

Additional observations from a re-analysis of the deposited data

How the results depend on the processing

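The adjusted p of Reg3g stayed under 0.05 in 10 of 19 alternatives, among them the 75th percentile scaling (difference 4.08), normexp background correction (3.32), the deposited log2 table (4.31) and every filter on dim probes. The 10 include the fold and nominal p cut-offs, which keep the adjusted p of the reported fit and so could not change it. They also include the mean over the probes of a gene, which leaves the Reg3g values unchanged. The difference was positive in all 19, from 3.30 to 6.04. With array numbers 1 and 2 as a replicate block it was 4.46 (limma adjusted p = 0.221), with a replicate block of 3 pairs 4.30 (0.0663), from the 4 arrays whose names share an ending 4.80 (0.202) and by the methods' t-test 4.30 (0.120 after Benjamini-Hochberg). The number of Reg genes called was 0 in each of these 4 fits and 2 with array weights, where Reg3b passed (2.77) and Reg1a turned to 0.15. Over all probes, 1496 were called, against 0 with the replicate block of numbers 1 and 2, 97 with 3 pairs, 0 from the 4 arrays, 435 by the methods' t-test, 2338 with no filter, 5693 with array weights and 3952 at the fold and nominal p cut-offs of the study with the p of limma. With 1 array left out the differences ranged from -0.93 to 0.019 for Reg1a, from 0.82 to 3.02 for Reg3a, from 0.84 to 2.35 for Reg3b and from 3.30 to 5.11 for Reg3g, the Reg genes called from 0 to 1 and all probes called from 208 to 2169. Cpa1 was at -0.45 under 75th percentile scaling, -0.68 with the replicate block of numbers 1 and 2 and from -0.46 to 0.53 with an array left out, Amy2a3 at -0.31 under 75th percentile scaling, and Cela1 at 0.092 with array weights and from -0.38 to 0.19 with an array left out. The cause was not tested in any of these. The median of all probes was -0.40 under 75th percentile scaling and -0.10 after normexp. The block changed no other call of the Reg genes. A 12-month array without a number, a single scan for each age and 3 arrays a group limit every comparison.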

Other observations

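Gene groups often measured beside Reg genes held 0 genes past the limma threshold between the ages, and 0 by the methods' t-test after adjustment. At an unadjusted p under 0.05 there were 2 acute-phase, 2 antimicrobial, 0 inflammatory and 1 cell cycle genes. Of 13 acute-phase genes 8 were higher at 12 months, with a median difference of 0.38 on the log2 scale, beside -0.17 over all probes (Nupr1 had no value on 3-month array 1). Lcn2, a bacterial siderophore binder, differed by 1.04 (limma adjusted p = 0.269). Of 7 tested antimicrobial genes 2 were higher, with a median of -0.87, and Camp, the cathelicidin, differed by -1.19 (0.0779). Of 7 tested inflammatory cytokine and receptor genes 2 were higher, with a median of -0.41, and of 7 cell cycle genes 6 were higher, with a median of 0.44. Lcn2 and Camp were chosen after their values were seen.

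Il6, which encodes the ligand of Il6r, was well above background on 1 of the 6 arrays and so was not tested. That array was 12-month array 1, on which all 3 Reg3 genes were highest, and its log2 signal there was 5.64, against 2.09 to 2.38 on the other 5 arrays. Ifng, not well above background on any array, was also highest there, at 4.10 against 2.05 to 3.04 on the other arrays. The mean log2 signal of the acute-phase, inflammatory and cell cycle lists was highest on that array too, and that of the antimicrobial list was not. Il6 and Ifng were chosen after their values were seen.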
